A study of Mus musculus with 8 samples.

Results

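The clustered histone genes are the 68 rows of the deposited gene table whose symbol begins with Hist1h, Hist2h, Hist3h or Hist4h, out of 24054 genes. They were chosen by name alone, and all 8 libraries of the study were used. The libraries come from WEHI-miR-148a and WEHI-control, both stable derivatives of the WEHI-231 line, which was established from a B lymphoma of the mouse. There were 4 groups of 2 libraries: WEHI-miR-148a given anti-IgM, an antibody against the B cell receptor, at 2 ug/ml for 14 h; WEHI-control given the same; WEHI-miR-148a without stimulation; and WEHI-control without stimulation. How the lines were made, and whether each is 1 clone, is not given in the sources used here. Each group has 1 library from sequencing run R143 and 1 from run R137, so the runs can be compared across all 4 groups. RNA was selected on oligo-dT beads, which bind poly(A) tails, before library preparation.

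Histones H2A, H2B, H3 and H4 form the core that DNA wraps around, and H1 binds the DNA between cores. The clustered genes supply most of these proteins during S phase, when new DNA has to be packaged. Their mRNAs are known for ending in a short stem-loop, bound by the stem-loop binding protein Slbp, in place of a poly(A) tail, although some clustered genes also give polyadenylated transcripts. Histone variant genes outside the clusters, such as H3f3a and H2afz, make ordinary polyadenylated mRNAs throughout the cell cycle.

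By the GENCODE annotation of GRCm38, 54 of the genes lie in the Hist1 cluster on chromosome 13, 10 in Hist2 on chromosome 3, 3 in Hist3 on chromosome 11 and 1, Hist4h4, on chromosome 6. By class they are 6 H1, 18 H2A, 19 H2B, 12 H3 and 13 H4 genes. A 3′ UTR of at least 16 bases was annotated for 52 of them. On the transcript strand, a 16-base motif written after the histone stem-loop, with 9 of its positions fixed and the others free, was present in the 3′ UTR of 45 of these 52 (86.5%), against 151 of 20914 other protein-coding genes with a 3′ UTR (0.722%). It began 21 to 58 bases after the stop codon. The form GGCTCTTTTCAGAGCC stood in 25 of the genes, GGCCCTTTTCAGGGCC in 7 and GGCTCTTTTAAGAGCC in 6. A poly(A) signal, AATAAA or ATTAAA in the last 50 bases of the annotated transcript, was present in 17 of the 52 (32.7%), against 74.9% of the other genes. The sequences below, read from GRCm38 on the strand of the gene, are those of the genes whose levels are described first, with the stem-loop or the poly(A) signal in capitals.
Hist1h2ap stem-loop, chr13:21833026-21833049, minus strand: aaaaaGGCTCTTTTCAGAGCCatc
Hist1h1e stem-loop, chr13:23621777-23621802, minus strand: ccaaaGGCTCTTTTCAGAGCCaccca
Hist2h3c2 stem-loop, chr3:96238480-96238505, minus strand: acaaaGGCTCTTTTCAGAGCCaccac
Hist1h4a stem-loop, chr13:23760795-23760820, minus strand: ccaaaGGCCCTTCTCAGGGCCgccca
Hist1h1c stem-loop, chr13:23739507-23739532, plus strand: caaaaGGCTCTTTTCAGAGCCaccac
Hist1h4i stem-loop, chr13:22040961-22040986, minus strand: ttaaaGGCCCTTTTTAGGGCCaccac
Hist1h1c poly(A) signal, chr13:23740332-23740357, plus strand: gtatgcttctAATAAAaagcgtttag
Hist1h4i poly(A) signal, chr13:22040641-22040666, minus strand: ttctgtttacATTAAAagtattctat
Hist2h2be poly(A) signal, chr3:96223707-96223732, plus strand: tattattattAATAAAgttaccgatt
Hist1h2ap, Hist1h1e, Hist2h3c2, Hist1h4a, Hist1h1c and Hist1h4i thus carry the stem-loop, and Hist1h1c and Hist1h4i carry a poly(A) signal as well. The annotated transcript of Hist1h2ap ended 3 bases after its stem-loop, that of Hist1h4i 330 bases after it and that of Hist1h1c 840 bases after it. Annotated length alone does not separate the kinds: the Hist1h1e transcript ran on for 1153 bases with no poly(A) signal at its end. Hist2h2be had a poly(A) signal and no match to the stem-loop motif.

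Within a histone class, many of these genes are near copies of each other. Over the whole transcripts of the 68 genes, a median of 50.6% of the 50-base windows per gene occurred in no other annotated gene. Of the 68, 16 genes had under 20% such windows and 9 had at least 90%. The deposited values are estimated counts, and 58 of the 68 genes had values that were not whole, as happens when a read is shared out between genes it matches. Some genes held a fixed ratio in every library, within a tolerance of 0.001, and are not separate measurements: Hist2h2aa1 was 30.1 times Hist2h2aa2, Hist2h3c1 was 0.326 times Hist2h3c2, and Hist1h2bq equalled Hist1h2br. For Hist1h2ap, with 6.93% unique windows, and Hist1h2ao, with 6.50%, the split between genes is uncertain, and so is each value of a gene with few unique windows.

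Library totals ran from 5810227 to 18660373 counts, and levels are given as CPM, the counts divided by the library total and scaled with TMM factors, which allow for differences in library composition. A count of 3 corresponded to 0.166 to 0.502 CPM. The B cell label was met: the B cell receptor gene Cd79a had 481 to 769 CPM over the 8 libraries, and Pax5, a B lineage transcription factor gene, 115 to 244 CPM. The 5 measured T cell markers stayed at or under 0.348 CPM, and the macrophage genes Lyz2, S100a8 and S100a9 and the red cell gene Hbb-bs had 0 counts in every library. Other listed genes of these cells were detected. Of the macrophage genes, Itgam reached 8.86 CPM, Emr1 1.39 CPM, Csf1r 1.29 CPM and Cd14 0.164 CPM, and the red cell gene Alas2 reached 2.12 CPM. The labels do not say whether the 2 libraries of a group are separate cultures. The p-values therefore rest on the spread among libraries, and that spread may be technical.

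The clustered histone genes took up a small part of these polyA-selected libraries. Together they held 0.0242% to 0.0341% of the counts of a run R143 library and 0.00545% to 0.00824% of those of a run R137 library. Between 60 and 62 of the genes had a count in each run R143 library, and 45 to 55 in each run R137 library. There were 4 genes with 0 counts in all 8 libraries, namely Hist1h1t (a testis H1), Hist1h2aa, Hist3h2ba and Hist3h2bb-ps. In CPM per kilobase of exon, averaged over the 8 libraries, Hist1h2ap (H2A) stood first with 98.5, followed by Hist2h2bb (H2B) with 14.9, Hist2h2aa1 (H2A) with 14.4 and Hist1h1c (H1) with 9.33. By the same measure Hist1h4n led the H4 genes with 6.38 and Hist2h3c2 the H3 genes with 6.28.

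**Figure D1:**
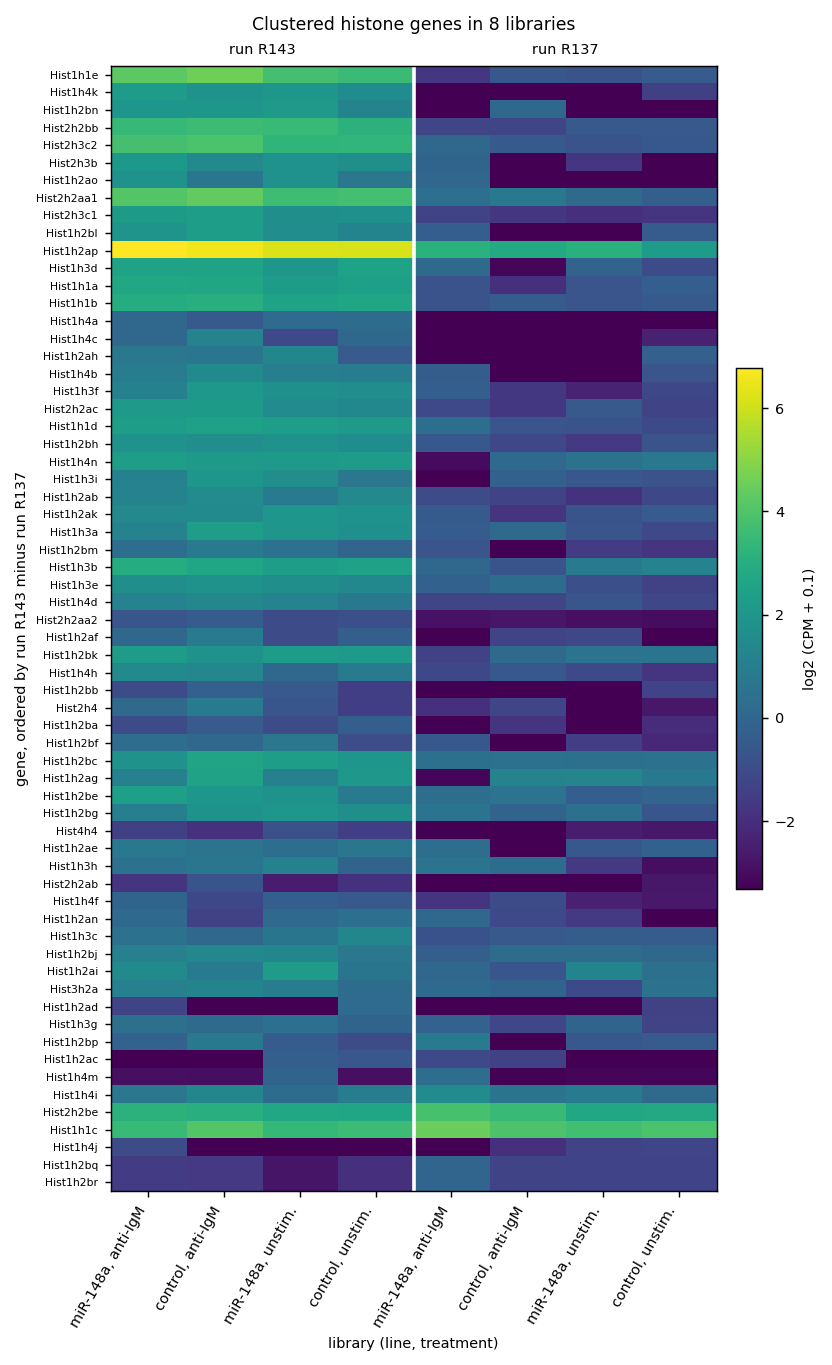
Level of each clustered histone gene with any count (rows, ordered by the run difference) in each of the 8 libraries (columns), as log2 of CPM plus 0.1 on the colour scale, with run R143 left of the white line and run R137 right of it. Hist1h2ap is the brightest row in run R143, and the rows of Hist2h2be and Hist1h1c near the bottom are as bright in run R137 as in run R143.

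For the clustered histone genes, the runs differed more than the treatments or the lines did. The summed level of the 68 genes in run R143 was 324 CPM with anti-IgM and 268 CPM unstimulated in the miR-148a line, and 336 CPM with anti-IgM and 248 CPM unstimulated in the control line. In run R137 it was 80.8 CPM with anti-IgM and 58.0 CPM unstimulated in the miR-148a line, and 61.7 CPM with anti-IgM and 56.2 CPM unstimulated in the control line. Every run R143 library was above every run R137 library, and within a group the ratio of run R143 to run R137 lay between 4.01 and 5.45. Hist1h2ap did not make the difference alone: without it the ratios were 2.97 to 4.44. In bulk RNA, fewer cells making a transcript and less of it per cell cannot be told apart. Since each run holds 1 library of every group, the run difference is not confounded with line or treatment, but run differs from run in everything the sources do not list, and what lies behind the difference was not tested.

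**Figure D2:**
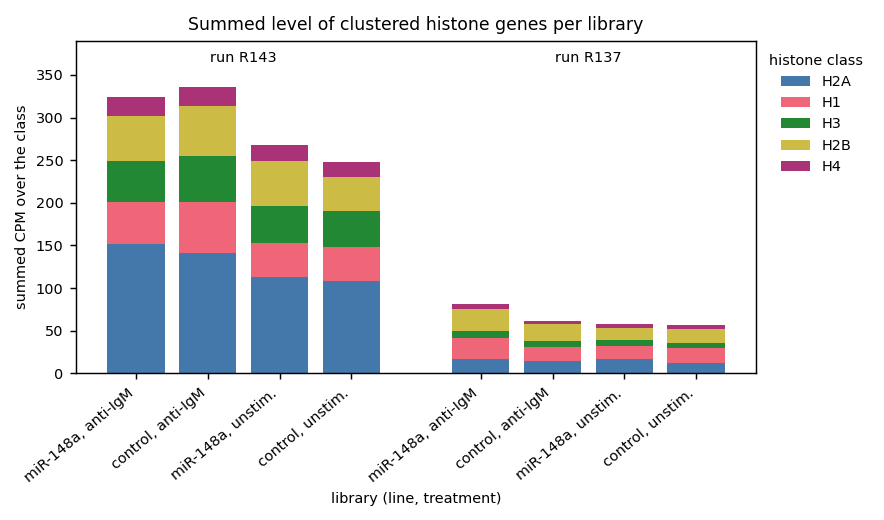
Summed CPM of the 68 clustered histone genes in each library, stacked by histone class, with the run R143 libraries on the left and the run R137 libraries on the right. Totals reach 248 to 336 CPM in run R143 and 56.2 to 80.8 CPM in run R137.

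By class, the ratio of run R143 to run R137 within a group was 6.73 to 10.0 for the summed H2A genes, 5.48 to 8.31 for H3, 3.86 to 5.49 for H4, 2.10 to 3.58 for H2B and 1.99 to 3.45 for H1. These sums are weighted by abundant genes such as Hist1h2ap (H2A), Hist1h1c (H1) and Hist2h2be (H2B), and the order differed gene by gene. Over the genes with enough counts for a test, the median log2 fold change was 3.27 for H1, 2.64 for H4, 2.51 for H3, 2.36 for H2A and 1.96 for H2B. Gene by gene, 43 of the 68 genes were higher in all 4 libraries of run R143 than in any library of run R137, and 2 were lower, Hist1h2bq and Hist1h2br, which are 1 measurement under 2 names. Over every gene of the table, 2.91% stood above in this way and 1.9% below, and over the 11291 genes with enough counts for a test 4.69% and 3.8%. The 43 comprised 4 of 6 H1, 9 of 18 H2A, 11 of 19 H2B, 11 of 12 H3 and 8 of 13 H4 genes, with 34 of 54 in the Hist1 cluster and 8 of 10 in Hist2. They include both genes of the fixed-ratio pairs Hist2h2aa1 with Hist2h2aa2 and Hist2h3c1 with Hist2h3c2, so the Hist2 genes are fewer separate measurements than 8.

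In edgeR's quasi-likelihood test with run as a term beside the 4 groups, and Benjamini-Hochberg adjustment over 11291 genes, 42 of the 68 genes were higher in run R143 at an adjusted p of 0.05 or less, and 0 were lower. Of all tested genes, 9.72% were called higher and 9.08% lower. Only 52 of the 68 had enough counts to be tested. Since a gene could enter the test on its run R143 counts alone, these 52 are not a fair sample of the 68. Their median log2 fold change was 2.44 (2.44 also with Hist1h4a at the bound given below), against 0.00 over all tested genes. Of the 50 genes of the whole table with the largest increase among those called, 22 were clustered histone genes. Of the 52, 50 had an unadjusted p under 0.05, against 3724 of all 11291 tested genes. DESeq2 called 35 higher and 0 lower.

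Among the H1 genes, which bind linker DNA, Hist1h1e had 18.7, 23.3, 14.0 and 11.7 CPM in the run R143 libraries of the miR-148a anti-IgM, control anti-IgM, miR-148a unstimulated and control unstimulated groups. In the run R137 libraries of the same groups it had 0.205, 0.575, 0.521 and 0.638 CPM. All 4 run R143 libraries were far above the run R137 libraries, a log2 fold change of 4.81 ± 0.22 (standard error, adjusted p = 6.63e-09 in edgeR). Hist1h1b, with every 50-base window unique, averaged 6.89 ± 1.06 CPM in run R143 and 0.577 ± 0.0781 CPM in run R137 (SD, n = 4 each). These SDs, like those given below, are over libraries of the 4 different groups, so they include differences by line and treatment. The log2 fold change of Hist1h1b was 3.48 ± 0.22. Hist1h1a (3.27 ± 0.27) and Hist1h1d (3.13 ± 0.28) were also called higher. Hist1h1c, the one tested H1 gene with a poly(A) signal at its annotated end, had 11.3, 16.7, 10.4 and 12.1 CPM in run R143 and 22.3, 15.3, 13.2 and 15.2 CPM in run R137, in the same order of groups. Its ranges overlapped, and its log2 fold change of -0.38 ± 0.14 did not pass the test (edgeR adjusted p = 0.0719). As a result Hist1h1c held 22.7% to 27.6% of the summed CPM of the clustered genes in run R137 libraries and 3.47% to 4.97% in run R143 libraries.

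Among the H2A genes, Hist1h2ap had 109.9, 94.3, 74.8 and 72.1 CPM in run R143 and 8.59, 7.22, 8.41 and 4.60 CPM in run R137, in the same order. The ranges were far apart, with a log2 fold change of 3.60 ± 0.11 (edgeR adjusted p = 5.49e-11). Hist2h2aa1 averaged 15.7 ± 3.49 CPM in run R143 and 1.13 ± 0.349 CPM in run R137 (SD, n = 4 each), a log2 fold change of 3.88 ± 0.17. Hist1h2ao, a near copy of Hist1h2ap, was higher by 3.94 ± 0.61 on the log2 scale. Hist1h2ag had 2.01, 5.59, 2.00 and 4.10 CPM in run R143 and 0.0116, 2.18, 2.30 and 1.59 CPM in run R137; the ranges overlapped and the difference of 1.03 ± 0.35 missed the threshold (edgeR adjusted p = 0.0513). Hist3h2a, the one expressed gene of the Hist3 cluster, averaged 1.81 ± 0.511 CPM in run R143 and 0.880 ± 0.377 CPM in run R137 (SD, n = 4 each), and its 0.95 ± 0.37 was not called (edgeR adjusted p = 0.0855).

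Among the H2B genes, Hist2h2bb had 10.9, 12.2, 11.4 and 9.02 CPM in run R143 and 0.329, 0.335, 0.613 and 0.610 CPM in run R137, a log2 fold change of 4.29 ± 0.22 (edgeR adjusted p = 1.36e-08) with no overlap. Hist1h2bn was higher by 4.45 ± 0.58 and Hist1h2bc by 1.84 ± 0.21. Hist2h2be, with every 50-base window unique, a poly(A) signal and no stem-loop match, had 8.95, 8.09, 6.38 and 6.05 CPM in run R143 and 14.1, 11.6, 6.59 and 6.71 CPM in run R137. Its ranges overlapped, and the log2 fold change of -0.34 ± 0.14 was not called (edgeR adjusted p = 0.0933). It held 11.4% to 18.7% of the summed CPM of the clustered genes in run R137 and 2.38% to 2.76% in run R143.

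Among the H3 genes, Hist2h3c2 had 13.7, 15.2, 9.76 and 9.91 CPM in run R143 and 0.976, 0.631, 0.500 and 0.585 CPM in run R137. Its log2 fold change was 4.08 ± 0.19 (edgeR adjusted p = 6.63e-09), and the groups did not overlap. Hist2h3c1, whose values are a fixed share of the same reads, gave 4.21 ± 0.33. Hist2h3b was higher by 4.05 ± 0.49, Hist1h3d by 3.15 ± 0.35 and Hist1h3b by 1.90 ± 0.27, all called. Hist1h3g (0.83 ± 0.37) and Hist1h3h (1.44 ± 0.51) were the H3 genes that did not pass, with edgeR adjusted p of 0.136 and 0.0668.

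Among the H4 genes, Hist1h4k averaged 3.77 ± 0.759 CPM in run R143 and 0.0700 ± 0.140 CPM in run R137 (SD, n = 4 each), and was called higher by 4.85 ± 0.49. Hist1h4n was called higher by 2.04 ± 0.32. Hist1h4a had 43 counts over the run R143 libraries and 0 over the run R137 libraries, so it was at least 13.3-fold higher, taking 3 counts over run R137 as the floor. Hist1h4c had 50 counts in run R143 and 2 in run R137, a depth-scaled ratio of 23.2 with a 95% counting interval of 6.10 to 197. Hist4h4, which had too few counts for the test, had 14 counts in run R143 and 2 in run R137, a ratio of 6.51 with an interval of 1.49 to 59.0. These intervals and floors cover counting error only. Hist1h4i, with a stem-loop and a poly(A) signal, had 1.51, 2.38, 1.10 and 1.82 CPM in run R143 and 2.87, 1.36, 1.72 and 1.04 CPM in run R137. Its groups overlapped, with a log2 fold change of -0.00 ± 0.33 (edgeR adjusted p = 0.997), whose sign changed with the setting.

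**Figure D3:**
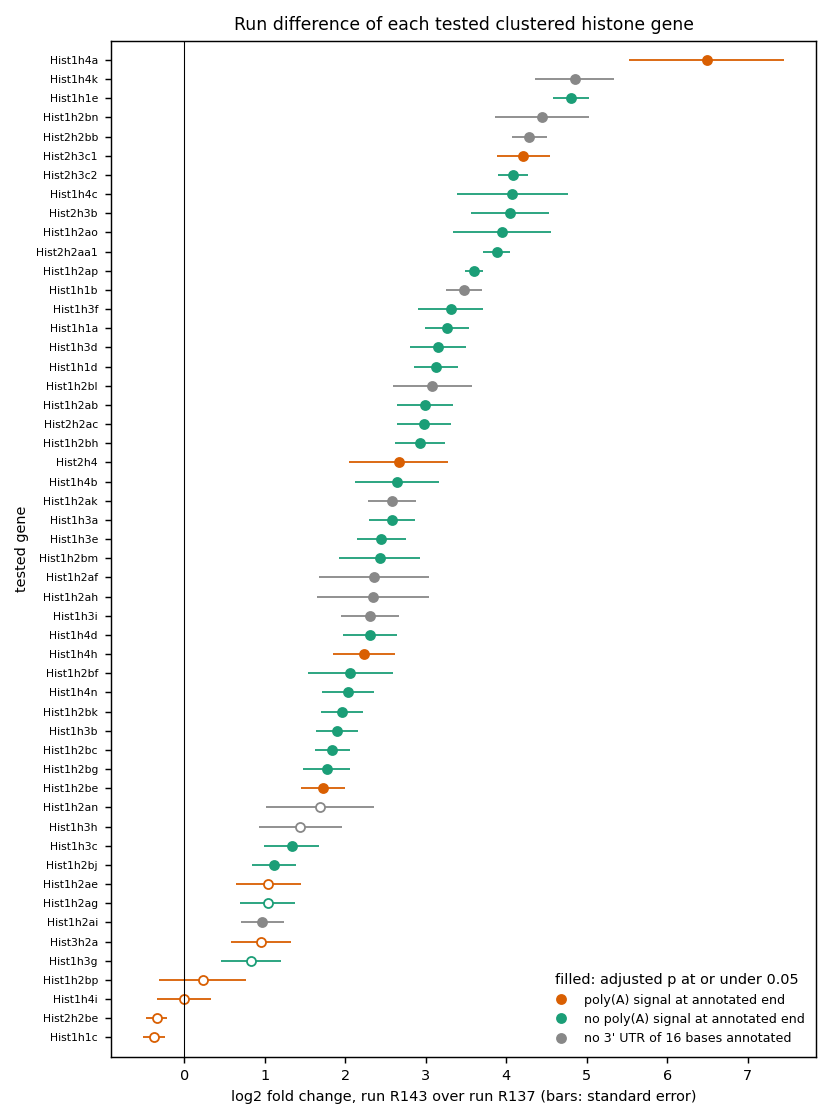
Log2 fold change of run R143 over run R137 for each of the 52 tested clustered histone genes, with its standard error as a bar; filled points passed an adjusted p of 0.05, and colours give the annotated 3′ end. The genes near 0 at the bottom are Hist1h1c, Hist2h2be, Hist1h4i and Hist1h2bp, all with a poly(A) signal; the top point, Hist1h4a, had 0 counts in run R137, so its fitted value is no bound.

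Sorted by the annotated 3′ end, the genes differed in how they behaved between runs. The 35 genes with no poly(A) signal at the end summed to 183 to 242 CPM in run R143 libraries and 22.6 to 28.6 CPM in run R137 libraries, with ratios within a group of 6.91 to 10.2. The 16 genes with no annotated 3′ UTR of 16 bases summed to 33.4 to 47.0 CPM in run R143 and 5.28 to 5.54 CPM in run R137. The 17 genes with a signal summed to 31.4 to 46.5 CPM in run R143 and 25.2 to 46.9 CPM in run R137, with ratios of 0.885 to 1.44, so these sums overlapped. That near equality rests on Hist1h1c and Hist2h2be: the other 15 genes with a signal summed to 13.5 to 21.7 CPM in run R143 and 5.49 to 10.4 CPM in run R137, with ratios of 2.04 to 3.96. All 4 libraries of run R143 were above those of run R137 for 28 of the 35 genes without a signal, for 10 of the 16 without an annotated 3′ UTR and for 5 of the 17 with a signal. Those 5 were Hist1h2be, Hist2h3c1, Hist1h4h, Hist1h4a and Hist4h4, and Hist2h3c1 shares its reads with Hist2h3c2, which has no signal. The kinds of gene were not tested against each other.

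Histone genes outside the clusters showed no such gap. Of 11 variant genes, 9 were tested; H2afj (0.25 ± 0.07) and H2afy (0.17 ± 0.06) were called higher in run R143 and H3f3b (-0.27 ± 0.05) lower, and the median log2 fold change was -0.05. H2afx, which makes the H2A variant phosphorylated at DNA breaks, carries both ends like Hist1h1c: its stem-loop, chr9:44335235-44335260 on the plus strand, and its poly(A) signal, chr9:44336033-44336058, are shown for comparison.
H2afx stem-loop: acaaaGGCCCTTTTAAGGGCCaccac
H2afx poly(A) signal: ggctaattttATTAAAggatcgtttg
H2afx had 250.1, 218, 173 and 181 CPM in run R143 and 241, 219.6, 169 and 183 CPM in run R137, in the order of groups used above. The ranges overlapped almost fully, and the log2 fold change was 0.02 ± 0.05 (edgeR adjusted p = 0.856).

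Some other RNAs known to lack a poly(A) tail were also higher in run R143. Of the 18 listed, 12 were in the table: 5 of these had 0 counts in every library, and 3 had enough counts to be tested, all 3 of which were called higher. As with the histone genes, an RNA such as Rpph1, at 0.383 CPM or less in run R137, could enter the test on its run R143 counts alone. Without a test, Scarna13 was also above in all 4 run R143 libraries, and the ranges of Terc, Vaultrc5 and Snord17, with at most 4 counts in a library, overlapped. Rmrp, the RNA of a ribonuclease that processes ribosomal RNA, had 17.2, 22.4, 12.2 and 10.7 CPM in run R143 and 1.48, 1.0, 0.690 and 2.11 CPM in run R137 (log2 fold change 3.31 ± 0.24, edgeR adjusted p = 1.01e-06). Rpph1, the RNA of ribonuclease P, was higher by 3.06 ± 0.40 and the small Cajal body RNA Scarna6 by 0.95 ± 0.30. In each of these 3 genes all run R143 libraries were above all run R137 libraries. The share of this in the histone difference was not tested.

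Genes of the machinery around histone mRNA moved little between runs. Of 21 genes for histone mRNA 3′ end processing and turnover, Upf1 (0.29 ± 0.06), an RNA helicase of mRNA decay, and Sympk (0.16 ± 0.05), a scaffold of 3′ end cleavage, were called higher, and Cstf3 (-0.29 ± 0.07) and Slbp (-0.24 ± 0.05) lower. Slbp had 183, 177, 175 and 163 CPM in run R143 and 199, 211, 200.1 and 209 CPM in run R137, all 4 run R143 libraries being below. Of 18 histone chaperone and acetylation genes, 4 were called lower, Nap1l1 (-0.41 ± 0.05), Npm1 (-0.34 ± 0.05), Hat1 (-0.30 ± 0.05) and Nasp (-0.26 ± 0.06), and 0 higher. Of 22 S phase and DNA replication genes, Ccne2 (-0.31 ± 0.08), the cyclin E2 gene, and Prim1 (-0.29 ± 0.06), a primase subunit, were called lower and 0 higher, with a median of -0.03. The B lineage genes Pax5 (0.50 ± 0.06) and Ms4a1 (-0.50 ± 0.08) were called in opposite directions. The red cell enzyme gene Alas2 was called higher by 1.41 ± 0.32, at 0.493 to 2.12 CPM, while 4 of the 7 listed red cell genes had 0 counts in every library.

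**Figure D4:**
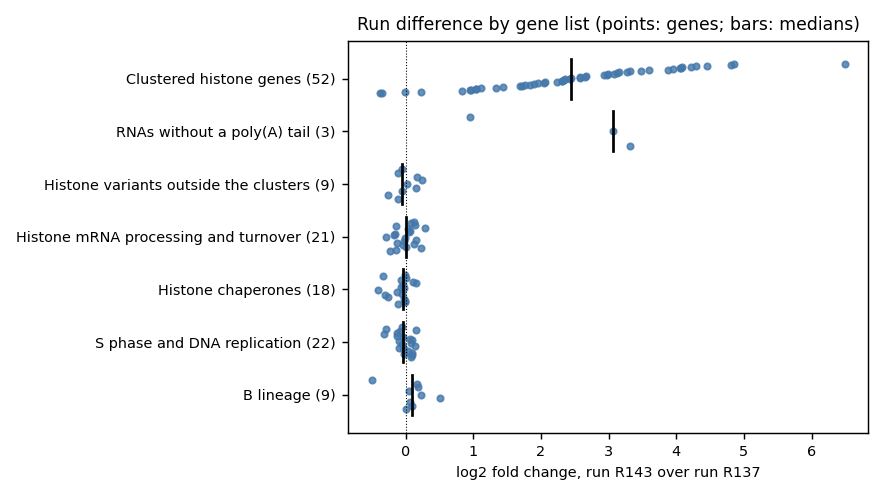
Log2 fold change of run R143 over run R137 for each tested gene of 7 gene lists (points; the number of genes is in brackets), with the median as a black bar. The clustered histone genes have a median of 2.44 and the RNAs without a poly(A) tail one of 3.06, and the other medians lie between -0.05 and 0.09.

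Anti-IgM against no stimulation in the control line asks whether crosslinking of the B cell receptor changes histone transcripts. Within run R143 the summed level was 336 CPM with anti-IgM and 248 CPM without, a ratio of 1.36; within run R137 it was 61.7 CPM with anti-IgM and 56.2 CPM without, a ratio of 1.10. In edgeR's quasi-likelihood test, 0 of the 68 genes were called higher and 0 lower (52 tested). Of all tested genes, 9.6% were called higher and 7.45% lower. DESeq2 also called 0 of the 41 clustered histone genes to which it gave an adjusted p. An unadjusted p under 0.05 in edgeR was reached by 2, Hist2h2be and Hist2h4, against 3649 of all 11291 tested genes. Over all genes, 1084 were called higher and 841 lower, and 1306 and 621 with upper quartile factors. This test takes the run difference as spread within a group. With the run as a block, 6 genes were called higher and 0 lower, against 17.6% and 17.2% of all tested genes.

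The 6 genes called higher in the control line with the block were Hist1h1e (0.88 ± 0.23, edgeR adjusted p = 0.00839), Hist2h2aa1 (0.63 ± 0.19), Hist2h2be (0.61 ± 0.19), Hist2h3c2 (0.58 ± 0.21), Hist1h2ap (0.46 ± 0.14) and Hist2h4 (2.46 ± 0.73). Hist2h2be had 8.09 CPM with anti-IgM and 6.05 CPM without in run R143, and 11.6 CPM with anti-IgM and 6.71 CPM without in run R137. Hist1h2ap had 94.3 CPM with anti-IgM and 72.1 CPM without in run R143, and 7.22 CPM with anti-IgM and 4.60 CPM without in run R137. These 2 genes and Hist2h2aa1 were above their unstimulated partner by 0.39 or more on the log2 scale in both runs. Hist1h1e had 23.3 CPM with anti-IgM and 11.7 CPM without in run R143, and 0.575 CPM with anti-IgM and 0.638 CPM without in run R137. Its run R137 values rested on 3.43 counts with anti-IgM and 11.5 without, too few to follow its response there. Hist2h4 rested on 19 counts with anti-IgM and 3 without in run R143, and on 2 and 1 in run R137.

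Over the 52 tested genes the median log2 difference within run R143 was 0.44 in the control line, and within run R137 it was 0.00. Both runs agreed on a higher level for 24 of the 52 and on a lower level for 6. Across all tested genes these medians were 0.01 in either run. The histone variants outside the clusters had 0 calls in the control line without the block and 3 higher with it. Of the 3′ end processing and turnover genes, Ccnf (0.47 ± 0.11), a cyclin that targets Slbp for decay in human cells, was called higher, and Ncbp2 (-0.67 ± 0.14), of the cap-binding complex, and Cstf2 (-0.33 ± 0.09), of the cleavage stimulation factor, lower. The S phase list had 1 call, Mcm2 (-0.34 ± 0.09), a subunit of the replicative helicase, and the chaperone list had Hjurp (0.37 ± 0.10), the loader of the centromeric H3 variant. With the block, 2 of the 3′ end genes were called higher and 6 lower, 2 of the S phase genes higher and 4 lower, and 1 of the chaperone genes higher and 6 lower.

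In the miR-148a line the summed level within run R143 was 324 CPM with anti-IgM and 268 CPM without, a ratio of 1.21; within run R137 it was 80.8 CPM with anti-IgM and 58.0 CPM without, a ratio of 1.39. Of the 68 genes 1 was called higher and 0 lower (52 tested), against 14.7% of all tested genes higher and 14% lower. The gene was Hist2h2be, with 8.95 CPM with anti-IgM and 6.38 CPM without in run R143, and 14.1 CPM with anti-IgM and 6.59 CPM without in run R137. Its log2 fold change was 0.80 ± 0.26 (edgeR adjusted p = 0.0445), 0.79 ± 0.19 with the block, and adjusted p over all settings tried ran from 0.00364 to 0.225. The call was lost in 6 of the 8 fits that left out 1 library, where the fold change fell to 0.46 without the anti-IgM library of run R137 in this line. With the block, 2 genes were called higher, Hist2h2be and Hist1h2ap (0.43 ± 0.14, edgeR adjusted p = 0.0212), and 0 lower, against 22.8% of all tested genes higher and 23.3% lower.

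Hist1h2ap had 109.9 CPM with anti-IgM and 74.8 CPM without in run R143, and 8.59 CPM with anti-IgM and 8.41 CPM without in run R137, so the rise lay in run R143. Hist1h1c had 11.3 CPM with anti-IgM and 10.4 CPM without in run R143, and 22.3 CPM with anti-IgM and 13.2 CPM without in run R137, and was not called (0.46 ± 0.29). The median log2 difference over the 52 genes was 0.10 within run R143 and 0.18 within run R137, with 19 of the 52 higher in both runs and 7 lower in both. Outside the clusters 4 variants were called higher here, H2afv (0.69 ± 0.14), H2afx (0.52 ± 0.09), H1f0 (0.52 ± 0.13) and the centromeric H3 gene Cenpa (0.46 ± 0.11), and 0 lower, of 9 tested. Of the 3′ end list 2 were called higher and 4 lower (2 and 9 with the block), with Ccnf at 0.73 ± 0.11, Ncbp2 at -0.63 ± 0.14, the decay factor gene Lsm1 at -0.58 ± 0.16 and Npat, an activator of histone transcription, at -0.51 ± 0.11. In the S phase list Rrm2 (0.35 ± 0.11), a ribonucleotide reductase subunit, was called higher and Mcm2 (-0.47 ± 0.09) lower, and with the block 2 were higher and 5 lower. Of the chaperone list 1 was called higher and 4 lower (1 and 9 with the block), led by the importin gene Ipo4 (-0.74 ± 0.15) and the H3.3 chaperone gene Hira (-0.52 ± 0.13).

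**Figure D5:**
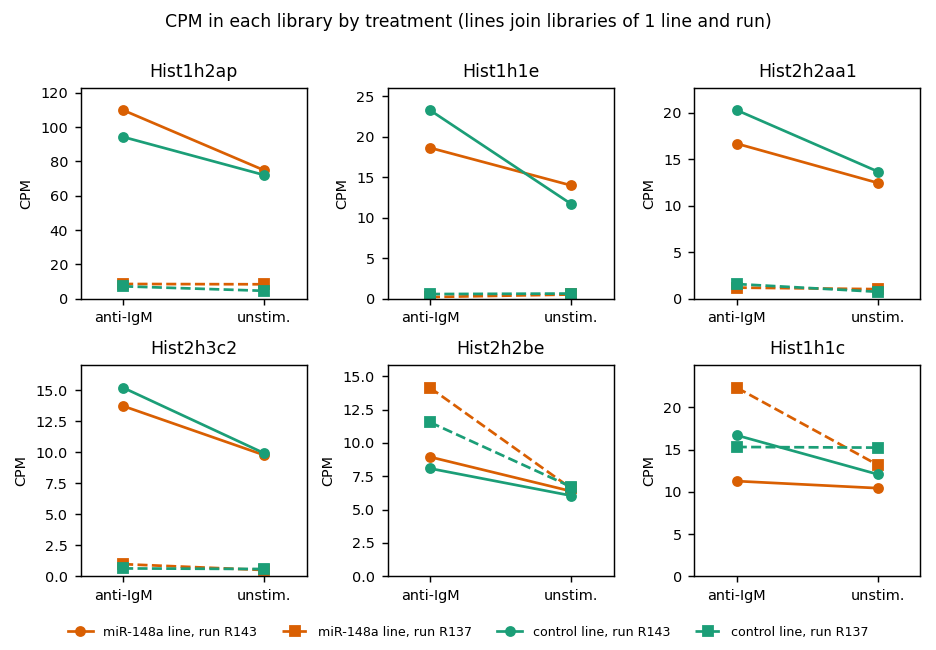
CPM of 6 clustered histone genes with anti-IgM (left) and unstimulated (right), each line joining the libraries of 1 cell line and 1 run; solid lines are run R143 and dashed lines run R137. Hist1h2ap, Hist1h1e, Hist2h2aa1 and Hist2h3c2 lie near the axis in run R137, while Hist2h2be and Hist1h1c have their highest value in the anti-IgM miR-148a library of run R137.

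Over both lines, 1 of the 68 genes had all 4 anti-IgM libraries above all 4 unstimulated ones, against 17.2% of all tested genes. It was Hist2h2be, whose anti-IgM libraries had 8.95, 8.09, 14.1 and 11.6 CPM, against 6.38, 6.05, 6.59 and 6.71 CPM in the unstimulated libraries. This rule also sets run R137 anti-IgM libraries against run R143 unstimulated ones. The 43 genes with all run R143 libraries above those of run R137, and the 2 with all below, could not meet it. The count of 1 is thus not comparable with the 17.2% and does not describe the response to anti-IgM. The comparisons of anti-IgM in the control and miR-148a lines use different libraries, and the macrophage integrin gene Itgam was called higher with anti-IgM in both, by 3.5 ± 0.40 in the control line and 4.17 ± 0.39 in the miR-148a line, up to 8.86 CPM. It was 1 of 2 tested among 7 measured macrophage genes, and its part in the histone levels was not tested. The difference in response between the lines, tested as an interaction, was called for 0 of the 52 tested genes in edgeR, with and without the block. DESeq2 also gave 0. Without the block, 0 of the 52 reached an unadjusted p under 0.05 in edgeR, against 484 of all 11291 tested genes. Over all tested genes 0% were called without the block and 0.062% higher and 0.0354% lower with it.

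Between the lines, miR-148a against control without stimulation gave 0 calls among the clustered histone genes in edgeR. Of all tested genes, 0.248% were called higher and 0.239% lower. An unadjusted p under 0.05 in edgeR was reached by 1 clustered histone gene, against 1286 of all 11291 tested genes. DESeq2 called 0 of the 45 clustered histone genes to which it gave an adjusted p. Summed levels were 268 CPM in the miR-148a line and 248 CPM in the control line in run R143, and 58.0 CPM in the miR-148a line and 56.2 CPM in the control line in run R137. With the block, Hist1h2ai was called higher in the miR-148a line (1.25 ± 0.32, edgeR adjusted p = 0.0306), and 0 were called lower, against 3.91% of all tested genes higher and 3.37% lower; it had 4.65 CPM in the miR-148a line and 1.43 CPM in the control line in run R143, and 2.24 CPM in the miR-148a line and 1.23 CPM in the control line in run R137. The variant H2afy, a macroH2A gene, was called lower in WEHI-miR-148a (-0.88 ± 0.12), and with the block 3 variants were called higher and 1 lower.

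With anti-IgM the lines again showed 0 calls among the clustered histone genes in edgeR. Of all tested genes, 1.36% were called higher and 1.16% lower. An unadjusted p under 0.05 in edgeR was reached by 0 clustered histone genes, against 2059 of all 11291 tested genes. DESeq2 also called 0, but gave an adjusted p to only 15 clustered histone genes. Summed levels were 324 CPM in the miR-148a line and 336 CPM in the control line in run R143, and 80.8 CPM in the miR-148a line and 61.7 CPM in the control line in run R137, so the order of the lines differed between runs. With the block, Hist1h2ag was called lower with anti-IgM in WEHI-miR-148a (-1.76 ± 0.54, edgeR adjusted p = 0.0398), and 0 were called higher, against 8.24% of all tested genes lower and 7.9% higher. It had 2.01 CPM in the miR-148a line and 5.59 CPM in the control line in run R143, and 0.0116 CPM in the miR-148a line and 2.18 CPM in the control line in run R137, with 21.1% of its windows unique. Outside the clusters H2afv (0.85 ± 0.14) and H1f0 (0.76 ± 0.14) were called higher and H2afy (-0.83 ± 0.13) lower, and with the block 4 were higher and 1 lower. The line comparisons share libraries with the anti-IgM comparisons.

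Whether the run difference itself depended on treatment was tested as run by treatment. In edgeR 0 clustered histone genes and 0 of all tested genes were called; 6 of the 52 and 487 of all 11291 had an unadjusted p under 0.05, and DESeq2 gave 0.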

How the data were processed

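PolyA-selected RNA from 8 libraries was sequenced, 4 groups of 2. The table the authors deposited holds, for each gene symbol, expected counts (estimated, so not always whole, and not normalized). Per the submitters' processing notes, edgeR, Partek 6.15.0730, TopHat2 2.0.13 with Bowtie2, CASAVA 1.8 and cutadapt were the tools and mm10 and GRCm38 the builds. Which annotation and strand setting the counting used is not given in the sources used here, so reads of near copies and of overlapping or antisense genes may not have been told apart. The genes described, the gene lists and the tests were chosen with earlier results of these data known.

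Of 24081 rows, 27 with names turned into dates were left out (0.213% to 0.235% of counts). Counts were rounded and tested with edgeR 4.0.16 (R 4.3.3, limma 3.58.1) by quasi-likelihood on all 8 libraries (filterByExpr by group, TMM factors, 4 group means, 4 residual degrees of freedom), with Benjamini-Hochberg adjustment over 11291 genes and a threshold of 0.05. The run comparison adds run to the group means (3 degrees of freedom). Values after ± are standard errors of log2 fold changes, or SD where so named. These standard errors were back-calculated from the test, as the absolute fold change over the square root of its F statistic. Values within a run are differences of log2 CPM (prior count 2), with no test. On simulated counts for the control line and run comparisons the test was checked before use. Only genes with ample expected counts in all 8 libraries were changed there, and the control line simulation held no run difference. The check does not cover histone genes with few counts in a run.

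Replicate 1 is run R137 and replicate 2 run R143 in the labels. In each of the 6 pairs of groups, libraries with the same number shared deviations from the mean of their group (correlation across genes, Pearson's r 0.495 to 0.569, and 0.411 to 0.516 without the clustered histone genes), so the numbers pair libraries by run, and counts with the replicate block stand beside those they change. Replicates differed by more than sampling noise (mean chi-square 9.47 to 13.7 per gene). The biological coefficient of variation came to 11.1% without the block and 5.98% with it.

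Named genes were the 3 with the highest mean CPM of each histone class, up to 10 called in each direction per comparison, the Hist3 and Hist4 genes and, from other lists, up to 4 called genes per comparison; genes called only with the block and examples by 3′ end were added after their values were seen. Alternatives were DESeq2 1.42.0, RLE and upper quartile factors, no filter on low counts, the replicate block, only the 4 libraries compared, and leaving out each library. For treatment and line, DESeq2 was run without the replicate block. It gave an adjusted p to 41 clustered histone genes for anti-IgM in each line, 45 between unstimulated lines and 15 between stimulated lines. Stem-loops and poly(A) signals were sought in GENCODE transcripts of GRCm38 with Python 3.11.15, in the coding transcript with the longest 3′ UTR.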

Additional observations from a re-analysis of the deposited data

Results flagged for a closer look

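By the sign of differences in log2 CPM from rounded counts, 7 of the 52 tested clustered histone genes (13.5%) met a rule of opposite response. They moved one way with anti-IgM in both runs of one line and the other way in both runs of the other line. Of all 11291 tested genes, 572 (5.07%) met it. The difference in response, miR-148a line minus control line, was 1.09 on the log2 scale for Hist1h2ae, 0.43 for Hist1h3d and 0.11 for Hist1h2bh. From rounded counts, these were higher with anti-IgM in both runs of the miR-148a line and lower in both runs of the control line. In unrounded CPM, Hist1h2bh was slightly higher, not lower, in run R143 of the control line, at 2.998 CPM with anti-IgM and 2.935 CPM without. The difference in response was -1.99 for Hist1h3i, -0.94 for Hist1h2bc, -0.88 for Hist1h2bj and -0.76 for Hist1h4d. By the sign from rounded counts, these were lower with anti-IgM in both runs of the miR-148a line and higher in both of the control line. By unrounded CPM, Hist1h4d was slightly lower, not higher, in run R137 of the control line, at 0.335 CPM with anti-IgM and 0.339 CPM without. In run R143 of the miR-148a line Hist1h4d had 2.12 CPM with anti-IgM and 2.13 CPM without. The interaction was not called for any of the 7 in edgeR, with or without the replicate block. In the run R137 anti-IgM library of the control line, Hist1h3d had 0.0108 CPM, Hist1h2ae 0 CPM and Hist1h2bh 0.343 CPM, under the level of 3 counts. Hist1h4d was also under that level in this library. In the run R137 anti-IgM library of the miR-148a line, Hist1h4d (0.329 CPM) and Hist1h3i (2.5e-11 CPM) were under it too. The 13.5% counts these genes, whose signs rest in part on such values. It also counts Hist1h2bh and Hist1h4d, which did not meet the rule by unrounded CPM. The sign of a small difference at few counts can fall either way. The 13.5% is therefore not comparable with the 5.07%, and an excess was not tested.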

How the results depend on the processing

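Counted over called genes, the run difference kept its direction under each setting tried. Members called higher in run R143 numbered 42 with RLE or upper quartile factors (the same 42 genes), 49 with no filter, 35 with DESeq2, 39 to 43 when 1 library was left out, and 43 by groups that did not overlap, a rule added after seeing the data. The count called lower was 0, except 2 with no filter and 1 without either control anti-IgM library (range 0 to 1); for run by treatment the count lower ranged from 0 to 1. The replicate block moved the calls with anti-IgM to 6 higher in the control line and 2 in the miR-148a line, and those between lines to 1 higher unstimulated and 1 lower with anti-IgM; it changed no other count of the clustered genes, while counts of the other lists moved as given beside them. The 1 gene called higher in the miR-148a line became 0 with DESeq2 and with only the 4 libraries compared, and 0 to 2 when 1 library was left out.

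Leaving out 1 library leaves a group in a single run, so by construction the unblocked values of run-dependent genes swing with it. In the control line the log2 fold change with anti-IgM ranged from -3.49 to 4.26 for Hist1h1e, -2.36 to 3.53 for Hist1h2ap, -2.15 to 4.01 for Hist2h2aa1, -2.86 to 3.81 for Hist2h3c2 and -1.56 to 0.89 for Hist1h4n. In the miR-148a line it ranged from -2.28 to 2.86 for Hist1h2ap, -2.37 to 3.86 for Hist2h3c2, -0.074 to 0.92 for Hist1h1c and -7.94 to 1.14 for Hist1h4n. Hist1h4n was -0.03 in the control line and 0.025 with upper quartile factors, and 0.01 in the miR-148a line, -0.14 with DESeq2 and -0.12 with the block. Hist1h4i between runs was -0.00, 0.0077 with upper quartile factors and -0.30 to 0.29 without 1 library. Likewise the summed CPM of the members, taken as a mean over both libraries of a group, ran from 80.8 to 324 with anti-IgM and 58.0 to 268 unstimulated in the miR-148a line when 1 was left out, and from 61.7 to 336 with anti-IgM and 56.2 to 248 unstimulated in the control line.

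Depth limits the low genes: 3 counts came to 0.502 CPM in the shallowest run R137 library, above many run R137 values here. The run R137 anti-IgM libraries were the 2 shallowest, so genes near that floor cannot be followed with treatment there. Only 2 libraries per group, and near copies among the genes, limit what a test can separate.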
